A study of Bos taurus with 21 samples.

Results

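The miRNAs miR-191, miR-197, miR-328, miR-339a and miR-339b are described here in extracellular vesicles from cow serum. They were chosen by name, as the 5 rows of these names among 847 rows of miRNAs, of which 298 carry a known bovine name and 549 only a number. None of the 5 rows carried an arm suffix, so the arm that was counted is not stated. Small RNA was sequenced from 21 cows (Bos taurus): 7 with clinical mastitis, an inflammation of the udder with visible signs, 7 with subclinical mastitis, inflamed without visible signs, and 7 healthy cows. The labels name no treatment, age, pathogen or method of vesicle isolation. The question was whether these miRNAs differ between the 3 conditions.

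miRNAs are short RNAs that guide the repression of messenger RNAs, and vesicles carry them outside cells. Platelets, the cell fragments that start clotting, hold many miRNAs and shed vesicles when they are activated, and serum is what remains after blood has clotted. In humans, miR-191, miR-197, miR-328 and miR-339 have all been found in platelets and in platelet-derived vesicles, although other cells make them too. A level in serum vesicles cannot tell fewer vesicles of a source from less of the miRNA in each vesicle.

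The libraries were shallow and differed in depth. Signal below is on the authors' scale, which is near to reads per 1000000 known miRNA reads of a library, and whole reads were recovered from it. The known signals of a library summed to 2.06 to 5.39% over 1000000, and shares of reads below use the recovered reads. Known miRNAs took 1386 to 34565 reads per library in clinical cows, 3187 to 28045 in subclinical cows and 1371 to 5706 in healthy cows. They made up 3.08 to 52.8% of all miRNA reads in clinical, 12.3 to 48.8% in subclinical and 4.34 to 30.4% in healthy libraries. Clinical 7 and healthy 7 had the highest shares of their groups. A single read was worth between 29.6 and 750.8 units of signal, depending on the library. For that reason reads are given beside signal for the rarer miRNAs.

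Of the 5 miRNAs, miR-191 was read in all 21 libraries, miR-328 in 13, miR-197 in 10, miR-339a in 2 and miR-339b in 1. Together they took 1.36% ± 0.557, 1.63% ± 0.694 and 1.25% ± 0.817 of known reads in clinical, subclinical and healthy cows (SD, n = 7 each). Most of these reads were of miR-191, which gave 2582 of the 2781 reads, or 92.8%, and at least 68.6% in each library. The signal of miR-191, miR-197 and miR-328 passed the filter on low values (at least 1 in at least 7 libraries), and miR-339a and miR-339b did not. With no filter these last were fitted too, and their lowest adjusted p in limma or edgeR was 0.590.

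miR-191 is one of the more abundant miRNAs of many human tissues and is often used there as a reference for other miRNAs. In these vesicles it ranked between 9th and 25th among the known miRNAs of a library, with a median rank of 13 in clinical, 14 in subclinical and 17 in healthy cows. Its signal had a lowest value, median and highest value of 7371, 12119 and 24241 in clinical cows. In subclinical cows these were 7649, 16537 and 21830. In healthy cows they were 5255, 9250 and 23784. The ranges overlapped almost entirely, and only clinical 5 stood above every healthy cow.

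**Figure D1:**
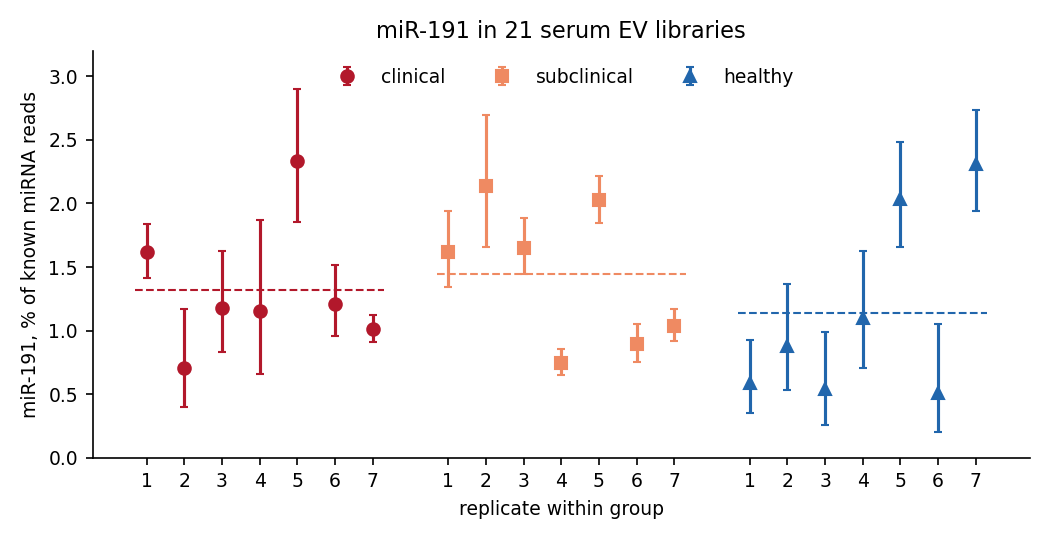
Reads of miR-191 as a percentage of known miRNA reads (vertical axis) in each of 21 libraries, by group and replicate; bars are exact 95% Clopper-Pearson intervals, which cover counting error only, and dashed lines are group means. Healthy 5 and healthy 7 sit at 2.04% and 2.31%, apart from the other healthy cows, while clinical and subclinical cows spread over a like range.

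Mean miR-191 signal was 13577 ± 5451 in clinical cows and 11809 ± 7637 in healthy cows (SD, n = 7 each), a ratio of 1.15. On the log2 scale limma gave 0.36 (SE 0.35, adjusted p = 0.884), which is within the spread between cows. In subclinical cows the mean was 14798 ± 5670, or 1.25 times that of healthy cows, and limma put the log2 change at 0.47 (SE 0.35, adjusted p = 0.537). Clinical against subclinical cows gave a ratio of 0.918, and the limma value was −0.11 (SE 0.35, adjusted p = 0.900). The 95% intervals of the 3 changes were −0.37 to 1.08, −0.25 to 1.196 and −0.84 to 0.61, and the first and second include a doubling over healthy cows. Both comparisons with healthy cows share the same 7 control libraries.

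Healthy cows were unevenly spread in miR-191. Healthy 5 and healthy 7 had signals of 21092 and 23784, and the other 5 healthy cows lay between 5255 and 11550. The coefficient of variation was accordingly 64.7% in healthy cows, against 40.1% in clinical and 38.3% in subclinical cows. Healthy 5 and healthy 7 also had the most known reads of the healthy libraries, 4763 and 5706, and the part of depth in this was not tested. Leaving out 1 library moved the ratio of means to healthy cows between 0.999 (without clinical 5) and 1.38 (without healthy 7) for clinical cows. For subclinical cows it ran between 1.15 (without healthy 6) and 1.51 (without healthy 7). Without the libraries under 2000 known reads the limma log2 changes of miR-191 were 0.023 and 0.12 (adjusted p = 0.994 and 0.914).

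The order of the groups depended on how cows were weighted. Each cow counting equally, miR-191 took 1.32% ± 0.523 of known reads in clinical, 1.44% ± 0.553 in subclinical cows and 1.14% ± 0.743 in healthy ones (SD, n = 7 each). Summed over the reads of a group, it took 797 of 64783 in clinical cows, 1478 of 116045 in subclinical cows and 307 of 21103 in healthy cows. These are shares of 1.23% (exact 95% Clopper-Pearson interval 1.15 to 1.32), 1.27% (1.21 to 1.34) and 1.45% (1.30 to 1.63), with healthy cows highest. Without clinical 7 the pooled clinical share was 1.48%, and without healthy 7 the pooled healthy share was 1.14%. As a share of known and numbered reads together, each cow counting equally, miR-191 took 0.198% ± 0.195, 0.475% ± 0.244 and 0.177% ± 0.250 in clinical, subclinical and healthy cows. Subclinical cows were highest, as in the share of known reads with each cow counting equally, but not as in the pooled share.

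Libraries differed in miR-191 by more than counting error. With 1 library per cow, differences between cows and between preparations cannot be told apart. Its variance over the 7 cows was 11.6 times what counting reads alone gives in clinical, 38.5 times in subclinical and 13.8 times in healthy cows. Over all 21 cows its coefficient of variation was 45.8%, the 15th lowest of the 31 known miRNAs read in at least 20 libraries, so in these vesicles it was neither among the steadiest nor among the most variable.

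miR-425 is made from the same primary transcript as miR-191 in humans, and in the RefSeq annotation of the cow genome (ARS-UCD2.0) MIR425 lies within 1000 bases of MIR191. miR-425-5p was read in 16 libraries with 237 reads in all, 84 in clinical, 131 in subclinical and 22 in healthy cows. Set against miR-191 of the same libraries, which does not depend on scaling, this is 10.5% of miR-191 reads in clinical, 8.86% in subclinical and 7.17% in healthy cows. In the 16 libraries with reads the ratio ran between 4.04% and 33.3% with a median of 9.56%, and the groups overlapped. Group medians there were 9.74% in 5 clinical, 9.38% in 7 subclinical and 10.5% in 4 healthy libraries, an order unlike that of the pooled ratios. The highest ratio, in healthy 4, rests on 8 reads of miR-425-5p and 24 of miR-191. miR-425-5p itself did not pass in any comparison. Its limma log2 change was 1.28 in clinical against healthy cows (SE 2.18, adjusted p = 0.943). It was 4.21 in subclinical against healthy cows (SE 2.18, adjusted p = 0.384) and −2.93 in clinical against subclinical cows (SE 2.18, adjusted p = 0.620). edgeR gave 0.36, 0.49 and −0.13 (adjusted p = 0.938, 0.907 and 0.961), and the ratios of means were 1.09, 1.41 and 0.771. The other arm, miR-425-3p, had 18 reads, 3 in clinical and 15 in subclinical cows, and 0 of 21103 in healthy cows, a limit of 0.0142%. The row of miR-191b, a gene that overlaps MIR191 in that annotation, held 2 reads, 1 in subclinical 5 and 1 in healthy 7.

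**Figure D2:**
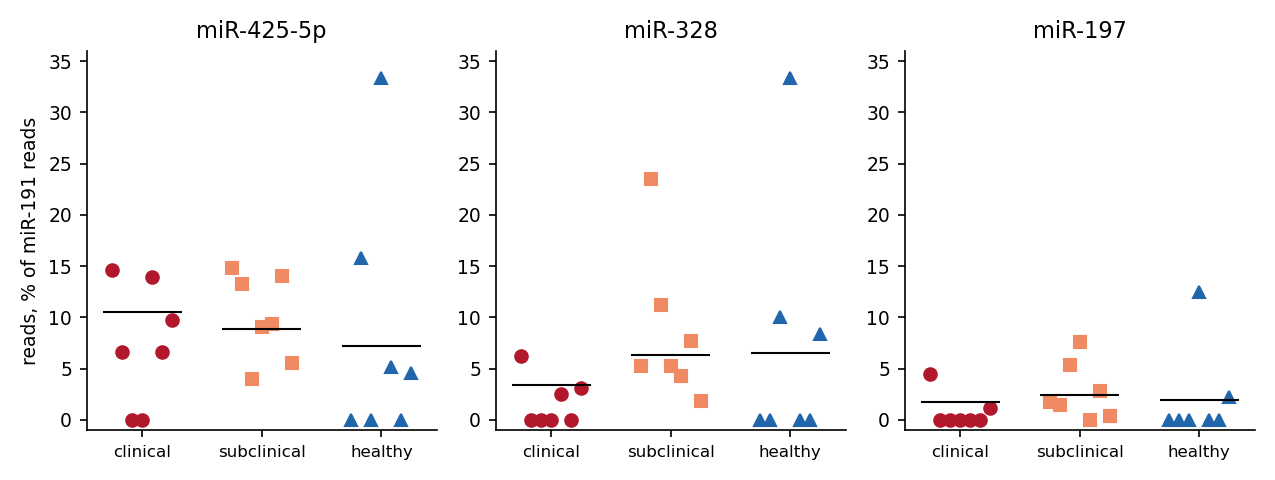
Reads of miR-425-5p, miR-328 and miR-197 as a percentage of the miR-191 reads of the same library (vertical axis), 1 point per cow in each group; lines are the pooled ratios, which for miR-425-5p are 10.5% in clinical, 8.86% in subclinical and 7.17% in healthy cows. Points of all 3 groups overlap in each panel, and healthy 4 is the highest point for miR-425-5p and miR-328, at 33.3%.

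miR-328, which in human leukaemia cells binds an RNA-binding protein besides repressing messenger RNAs, was read in 3 clinical, 7 subclinical and 3 healthy libraries. It had 27, 93 and 20 reads in these groups. Signal was 0, 0 and 1035 (lowest, median, highest) in clinical cows. In subclinical cows it was 196, 863 and 5136, and in healthy cows 0, 0 and 3850. Every subclinical cow had reads, subclinical 2 stood above all other cows, and the groups overlapped.

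Presence of miR-328 moved with depth. The 13 libraries with reads had 1853 to 34565 known reads (median 13488), and the 8 libraries at 0 had 1371 to 6280 (median 2610). Of known reads it took 0.0417% in clinical, 0.0801% in subclinical and 0.0948% in healthy cows when reads were summed over each group. The exact 95% Clopper-Pearson intervals were 0.0275 to 0.0606, 0.0647 to 0.0982 and 0.0579 to 0.146. The clinical and subclinical intervals did not overlap, while the clinical and healthy ones did, but single cows carried much of each sum and the intervals leave out the spread between cows. The clinical share was 0.0256% without clinical 1 and 0.0529% without clinical 7. The healthy share was 0.0634% without healthy 4 and 0.0585% without healthy 7, both below the subclinical 0.0801%. At the share pooled over all cows, subclinical 2 would hold 2.21 reads and held 16, and healthy 4 would hold 1.52 and held 8. Subclinical 7 would hold 18.1 and held 5, and clinical 6 would hold 4.35 and held 0.

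**Figure D3:**
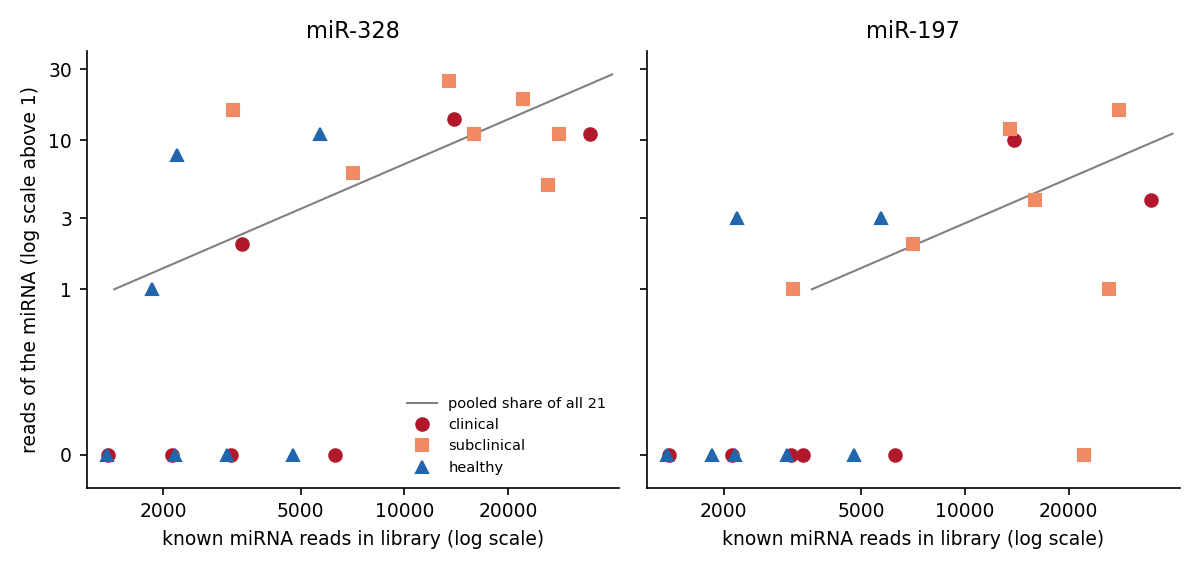
Reads of miR-328 (left) and miR-197 (right) on the vertical axis, logarithmic above 1, against the known miRNA reads of each of 21 libraries on a logarithmic horizontal axis; the line is the share pooled over all cows, drawn where it gives at least 1 read. The libraries at 0 for miR-328 have 1371 to 6280 known reads, and subclinical 5 is at 0 for miR-197 with 22139 known reads.

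Mean miR-328 signal was 282 ± 408 in clinical cows, 1441 ± 1717 in subclinical cows and 913 ± 1485 in healthy cows (SD, n = 7 each). For clinical against healthy cows limma gave a log2 change of −0.62 (SE 2.24, adjusted p = 0.977). The ratio of means was 0.309, and 0.666 without healthy 4 or 0.172 without clinical 1. For subclinical against healthy cows limma gave 5.22 (SE 2.24, unadjusted p = 0.0292, adjusted p = 0.261). The ratio of means was 1.58, and it became 0.904 without subclinical 2 and 3.40 without healthy 4, so 1 library decides its direction. For clinical against subclinical cows limma gave −5.84 (SE 2.24, unadjusted p = 0.0159, adjusted p = 0.191). The means stood at a ratio of 0.196, which was 0.342 without subclinical 2 and 0.109 without clinical 1. On the log2(signal + 1) scale a library at 0 weighs heavily, so these changes mostly count the cows without a read.

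A count test weighs a 0 by the depth of its library. edgeR's quasi-likelihood test gave miR-328 a log2 change of −1.18 in clinical against healthy cows (adjusted p = 0.733). It gave 0.45 in subclinical against healthy cows (adjusted p = 0.937). In clinical against subclinical cows it gave −1.63 (unadjusted p = 0.0819, adjusted p = 0.434). DESeq2, also a count test, gave −1.45, 1.06 and −2.51 in these comparisons (adjusted p = 0.681, 0.729 and 0.194). The unadjusted p of the last by DESeq2 was 0.0268. The directions were those of limma, and no adjusted p was under 0.05.

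miR-197, studied in humans as a circulating platelet miRNA, was read in 2 clinical, 6 subclinical and 2 healthy libraries, with 14, 36 and 6 reads. Signal was 0, 0 and 739 (lowest, median, highest) in clinical cows. In subclinical cows it was 0, 288 and 913, and in healthy cows 0, 0 and 1444. The groups overlapped, and the highest value of all, in healthy 4, is 3 reads. Of the 14 clinical reads, 10 were in clinical 1 and 4 in clinical 7. Summed over a group, the share of known reads was 0.0216%, 0.0310% and 0.0284% in clinical, subclinical and healthy cows, with exact 95% Clopper-Pearson intervals of 0.0118 to 0.0363, 0.0217 to 0.0429 and 0.0104 to 0.0619 that overlap. The clinical share was 0.00786% without clinical 1 and 0.0331% without clinical 7, and the healthy share was 0.0159% without healthy 4 and 0.0195% without healthy 7.

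miR-197 was not detected in subclinical 5, where 0 of 22139 known reads limits its share to 0.0136%. At the share pooled over all cows that library would hold 6.14 reads. Subclinical 7 would hold 7.25 and held 1. Among other deep libraries, clinical 7 would hold 9.59 and held 4, but subclinical 4 would hold 7.78 and held 16. These deep libraries lay on both sides of the pooled share, which their own reads largely set. Apart from subclinical 5, the libraries at 0 had at most 6280 known reads.

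Mean miR-197 signal was 123 ± 276 in clinical cows, 343 ± 317 in subclinical cows and 283 ± 550 in healthy cows (SD, n = 7 each). For clinical against healthy cows the limma log2 change was −0.45 (SE 2.15, adjusted p = 0.977) and the edgeR one −0.53 (adjusted p = 0.947). The ratio of means was 0.432, and it became 1.36 without healthy 4 and 0.0696 without clinical 1. For subclinical against healthy cows limma gave 4.18 (SE 2.15, adjusted p = 0.384) and edgeR 0.49 (adjusted p = 0.937). That ratio of means was 1.21, and 0.875 without subclinical 3 or 3.81 without healthy 4. For clinical against subclinical cows limma gave −4.63 (SE 2.15, unadjusted p = 0.0422, adjusted p = 0.356) and edgeR −1.02 (adjusted p = 0.757). The ratio of means was 0.357 there, and 0.0576 without clinical 1. Against healthy cows the ratio thus crossed 1 without healthy 4 in clinical cows and without subclinical 3 in subclinical cows.

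Reads of miR-197 and miR-328 came in the same cows. Both were read in 10 libraries, miR-328 alone in 3, miR-197 alone in 0, and neither in 8, and the libraries with both had a median of 13701 known reads. miR-328 exceeded miR-197 in 9 of the 10 libraries, the exception being subclinical 4 with 11 reads of miR-328 and 16 of miR-197. Against miR-191, miR-328 amounted to 3.39% of its reads in clinical, 6.29% in subclinical and 6.51% in healthy cows, and miR-197 to 1.76%, 2.44% and 1.95%. Healthy 4 was high for both, at 33.3% and 12.5% of only 24 miR-191 reads.

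The pair miR-339a and miR-339b, near-identical copies between which reads cannot be told apart with certainty, was almost absent. miR-339a had 1 read in clinical 7 and 1 in subclinical 2, and miR-339b had 1 read in subclinical 2. Whether the reads of miR-339a and miR-339b in subclinical 2 are 1 read counted in both rows was not tested. Healthy cows had 0 of 21103 known reads of either, a limit of 0.0142%, and clinical cows had 0 of 64783 of miR-339b, a limit of 0.00463%. At this depth no difference between groups was detectable. The 2 genes lie apart in the RefSeq annotation, MIR339A overlapping C25H7orf50 and MIR339B overlapping MYO1F, while MIR197 overlaps AMPD2 and MIR328 overlaps ELMO3.

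None of the 3 tested miRNAs passed an adjusted p of 0.05 in any comparison by limma or edgeR. For clinical against healthy cows 0 of 598 miRNAs were called by limma (0.0%) and 0 by edgeR (0.0%), while DESeq2 called 10 (1.67%). An unadjusted p under 0.05 was reached there by 37 miRNAs in limma and 52 in edgeR. For subclinical against healthy cows limma called 12 of 598 (2.01%), edgeR 8 (1.34%) and DESeq2 11 (1.84%). For clinical against subclinical cows limma called 24 (4.01%), edgeR 33 (5.52%) and DESeq2 37 (6.19%). At an unadjusted limma p under 0.05, 0 of the 3 were past it in clinical against healthy cows, beside 4.58% of the 131 known miRNAs tested. In subclinical against healthy cows 1 of the 3 was, beside 26.0% of known miRNAs, and in clinical against subclinical cows 2 of the 3 were, beside 18.3%. miR-328 and miR-197, read in 7 and 6 subclinical libraries, reached the 7 libraries of the filter only with these. Their counts against subclinical cows are therefore no support for a difference. The median limma log2 change of known miRNAs was 0.19, 2.23 and −1.64 in the 3 comparisons, so in the last 2 of them miR-328 and miR-197 had the sign of the median known miRNA, and in edgeR the medians were −0.01, 0.16 and −0.12.

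**Figure D4:**
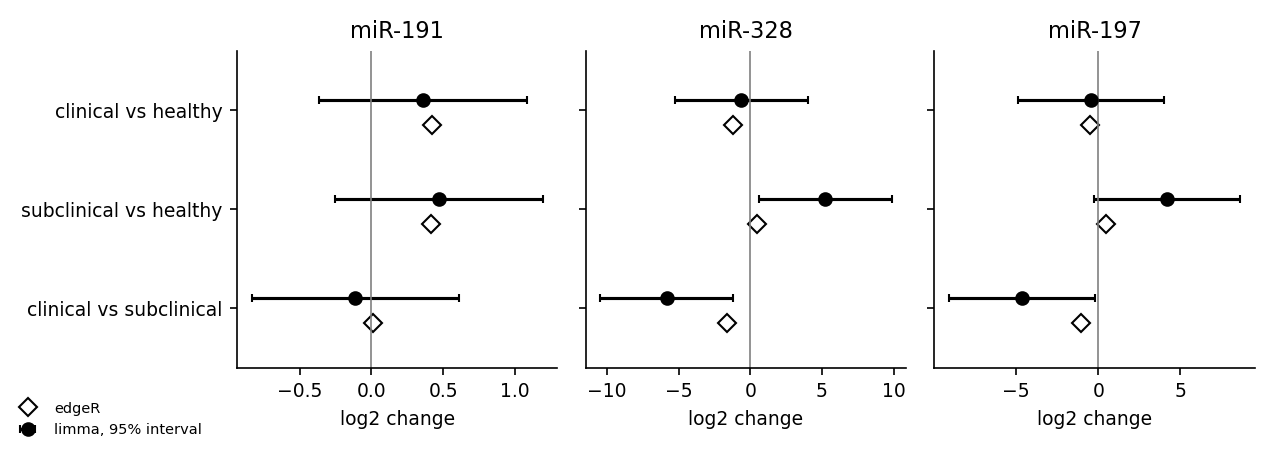
Log2 change of miR-191, miR-328 and miR-197 (horizontal axis, with its own range in each panel) in the 3 comparisons, first-named group over second; filled circles are limma on log2(signal + 1) with 95% intervals and open diamonds edgeR on reads. For miR-328, limma gives 5.22 and edgeR 0.45 in subclinical against healthy cows, the widest gap between the tools of its 3 comparisons.

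Of 711 further fits of these 3 miRNAs, 1 passed. It was miR-191 in subclinical against healthy cows, by edgeR with its default TMM reference and without healthy 7 (log2 change 1.01, adjusted p = 0.0491). On all 21 libraries that reference gave 0.74 (unadjusted p = 0.0254, adjusted p = 0.280). The deepest library as reference gave 0.41 (unadjusted p = 0.115, adjusted p = 0.572). DESeq2 gave 0.63 (adjusted p = 0.523) and limma with median-ratio scaling 0.74 (unadjusted p = 0.0486, adjusted p = 0.344). With the deepest library as reference the lowest adjusted p was 0.0607, without the replicate 7 libraries of all 3 groups, where the log2 change of miR-191 was 0.87. The columns of those cows are numbered differently in the deposited table.

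Other miRNAs known from human platelets did not pass either. Of 14 listed, 13 were in the table and 7 were tested, and 0 were called by limma or edgeR in any of the 3 comparisons. The median log2 change of the 7 was 0.23, 0.20 and −0.11 by limma. Summed over the 13, the list took 22.1 to 42.0% of known reads in clinical, 11.6 to 39.7% in subclinical and 20.6 to 32.6% in healthy cows. Most of that was miR-126-5p, which endothelial cells also make, with a signal of 237560 ± 68486 in clinical, 161906 ± 110326 in subclinical cows and 195838 ± 53267 in healthy ones (SD, n = 7 each). miR-223, also a neutrophil miRNA, had 19466 ± 6685, 24282 ± 11007 and 19103 ± 10091. Members of the list at 0 in all healthy cows were miR-146a, miR-22-5p, miR-20b, miR-199a-3p and miR-24, each read in at most 5 libraries in all. They had only 6, 15, 11, 9 and 1 reads over all cows. Healthy cows had 21103 known reads, against 64783 in clinical and 116045 in subclinical cows. A count of 0 there has a limit of 0.0142%, and the part of depth was not tested.

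Markers of other sources were read beside them. Red cell miRNAs (8 of 9 in the table, 7 tested) took 2.13 to 3.90% of known reads in clinical, 2.604 to 6.52% in subclinical and 2.04 to 4.31% in healthy cows. Leukocyte miRNAs (6 of 7, all tested, with miR-223 and miR-150 also on the platelet list) took 3.22 to 7.08%, 3.93 to 8.69% and 2.13 to 7.26%. No member of these lists was called by limma or edgeR. Hepatocyte miRNAs (6 of 6) took 0.0159 to 0.295%, 0.210 to 3.43% and 0.0463 to 1.49%, and in clinical against subclinical cows miR-122, the main liver miRNA, was lower by limma (−8.35, adjusted p = 0.0446) and edgeR (−4.22, adjusted p = 0.0155). edgeR also called miR-192 and miR-215 lower there (−3.46 and −5.27, adjusted p = 0.0266 and 0.0155), which limma did not (adjusted p = 0.121 and 0.0571). These 3 were named because they passed. Any part of these sources in the levels of miR-191, miR-197 and miR-328 was not tested.

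The known miRNAs most like miR-191 were those whose ratio to it varied least over the libraries. Of 30 known miRNAs read in at least 20 libraries, miR-223 came first, with an SD of the log2 ratio of 0.64 over 21 libraries. miR-23a followed with 0.69, miR-10174-3p with 0.71, miR-23b-3p with 0.75 and miR-24-3p with 0.78. The order changed without the libraries under 2000 known reads, where miR-150 came lowest at 0.563, before miR-23a at 0.625, miR-24-3p at 0.645 and miR-223 at 0.672. It also changed within groups, where the SD for miR-223 was 0.76 in clinical, 0.81 in subclinical and 0.33 in healthy cows. The lowest was miR-423-5p in clinical cows (0.28) and miR-150 in subclinical cows (0.42), and miR-223 was lowest in healthy cows alone. Counting reads alone would give the first 5 ratios an SD of 0.27 to 0.41, and the libraries spread more than that. Of the platelet list over all libraries, miR-223 came 1st, miR-24-3p 5th, miR-150 6th, miR-21-5p 8th, miR-126-3p 24th and miR-126-5p 26th. The red cell miRNAs miR-25, miR-92a and miR-486 came 10th, 12th and 13th, and the leukocyte miRNA miR-142-3p 19th. All values share a library and its scaling.

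**Figure D5:**
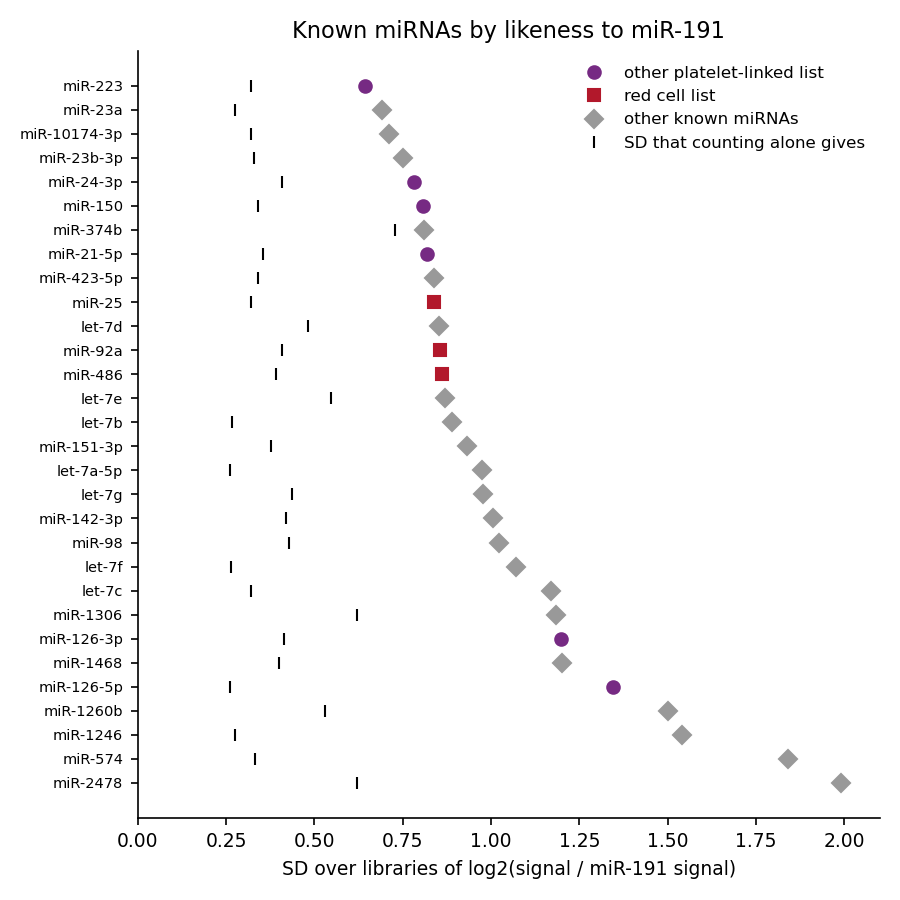
SD over libraries of the log2 ratio of signal to miR-191 signal (horizontal axis) for 30 known miRNAs read in at least 20 of 21 libraries, from most like to least; ticks mark the SD that counting alone gives, and colours mark the platelet-linked and red cell lists (miR-223 and miR-150 are also leukocyte miRNAs). Over all libraries miR-223 is first at 0.64, though not within clinical or subclinical cows, and the platelet-linked miRNAs are spread between it and miR-126-5p at 1.34.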

How the data were processed

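The authors deposited 1 table of normalized values, a signal near to reads per 1000000 that was scaled separately for known and numbered miRNAs. The signals of a library summed to more than 1000000, by 2.06 to 5.39% for known and 8.71 to 18.4% for numbered miRNAs. Per the submitters' processing notes, Bowtie, edgeR and the genome build ARS-UCD1.2 were used; their roles, and trimming and counting, are not given in the sources used here. Per the labels' protocols, RNA came from the miRNeasy Mini kit and libraries from the TruSeq small RNA kit.

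The step of which the values are multiples gave the worth of a read in each library, for known and numbered miRNAs apart. Divided by it, all 10115 values above 0 (100%) came within 0.05 of a whole number, and those numbers were used as reads. The design had been written for values on 1 scale. Its test was kept: limma's trended test of log2(signal + 1), two-sided, from a single fit of all 21 libraries, with Benjamini-Hochberg adjustment over 598 miRNAs (signal of 1 or more in 7 or more libraries). edgeR's quasi-likelihood test ran on the recovered reads with TMM factors per block. The deepest library was the TMM reference, chosen after the default reference was seen to shift when 1 library was left out. That reference shifts too when the deepest library itself, clinical 7 for known miRNAs, is left out. DESeq2 was a further alternative. The limma and edgeR fits were tried on simulated data, in 5 runs per comparison with 200 changed miRNAs each. Those changes were far larger than the ones of miR-191 here. The trial therefore does not show whether changes as small as these would be found. Intervals and limits for a count of 0 (3 reads) cover counting error only. No label says more about how cows were sampled, so p-values measure the spread between these samples.

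The members and lists were chosen with earlier results of these data known. Named are the members, the 5 known miRNAs whose log2 ratio to miR-191 varied least, and list members with the highest means, with exceptions said in the text. Replicate numbers were not taken to pair cows in the main test. RefSeq (ARS-UCD2.0) gave only names and neighbours of 8 miRNA rows. Tests ran in DESeq2 1.42.0, edgeR 4.0.16 and limma 3.58.1 under R 4.3.3, and tables and plots were made in scipy 1.17.1, matplotlib 3.10.9 and pandas 2.3.3 under Python 3.11.15.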

Additional observations from a re-analysis of the deposited data

Results flagged for a closer look

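In 6 of 12 groups of 7 cows with reads of a miRNA, a single cow stood apart from the others of its group, its gap to the next being wider, relative to the group's range, than Dixon's test allows at the 95% level. Chance gives this in about 1 in 20 groups of smoothly spread values. That rate does not hold for groups mostly at 0, and all but the miR-328 one of the 6 had 5 or 6 cows at 0. In 3 of them, those of miR-339a and miR-339b, the cow held the only read of its group, which fixes the result. miR-328 in subclinical 2 had a signal of 5136, or 16 reads. miR-197 in clinical 1 had 739, or 10 reads, and in healthy 4 it had 1444, or 3 reads. miR-339a had 29.6 in clinical 7 and 321 in subclinical 2, and miR-339b had 321 in subclinical 2, each of which is 1 read beside cows at 0.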

How the results depend on the processing

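Of the 711 alternative fits of miR-191, miR-197 and miR-328, 676 kept direction and side of the threshold, 34 reversed and 1 passed. The 676 include the DESeq2 fits of miR-197 in the 3 comparisons, which kept direction but had no adjusted p and were counted as not passing. miR-191 in clinical against subclinical cows reversed to 0.011 by edgeR, 0.011 with no filter and 0.029 without libraries under 2000 known reads. It reversed in 18 fits without 1 library. Without clinical 2 it was 0.019 (limma), 0.11 (edgeR) or 0.015 (default TMM reference). The other edgeR values were 0.015, 0.00273, 0.029 and 0.022 without clinical 1, 3, 4 and 6, then 0.065, 0.082, 0.037 and 0.031 without subclinical 1, 3, 5 and 7, and 0.011 to 0.012 without each healthy library. In clinical against healthy cows miR-197 reversed to 0.61 on 1 scale for both blocks (edgeR), to 0.83 (limma), 0.59 (edgeR) and 0.575 (default TMM reference) without healthy 4, and to 0.60 without healthy 7 (limma). There miR-328 reversed in limma to 0.033 without libraries under 2000 known reads, 0.035 without clinical 2, 3, 4 or 6, and 0.14, 0.60 and 0.44 without healthy 3, 4 and 7. The causes were not tested.

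Counts of called miRNAs moved too, partly over other numbers tested than 598: 131 known miRNAs alone, 847 with no filter, 575 without libraries under 2000 known reads and 538 without the replicate 7 libraries. In clinical against healthy cows DESeq2 called 10 and edgeR with its default TMM reference 1. In subclinical against healthy cows limma called 6 with median-ratio scaling, 2 with known miRNAs alone, 5 with the 2 groups alone, 0 without libraries under 2000 known reads and 23 without the replicate 7 libraries; edgeR called 5 on 1 scale, 3 without libraries under 2000 known reads and 25 without the replicate 7 libraries. In clinical against subclinical cows DESeq2 called 37, edgeR with no filter 38 and limma on known miRNAs alone 0. DESeq2 gave no adjusted p for miR-197.

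With 1 library left out at a time, calls ran between 0 and 4 for clinical against healthy, 3 and 26 for subclinical against healthy, and 14 and 39 for clinical against subclinical cows; the 26 came without healthy 7 and the 14 without subclinical 1 or 3, beside 15 without subclinical 5, all by limma. Members called ran between 0 and 0, 0 and 1, and 0 and 0. For miR-191 the log2 change ran between 0.20 and 0.71, 0.29 and 1.01, and −0.31 and 0.11 in these comparisons. For miR-197 it ran between −1.81 and 0.83, 0.04 and 5.47, and −5.83 and −0.58. For miR-328 it ran between −1.77 and 0.60, 0.03 and 6.44, and −6.85 and −1.21.

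Replicate numbers are shared between groups. The deviations of the 21 same-numbered pairs correlated between −0.12 and 0.31, 3 of them over 0.1, and 4 of 21 libraries matched their own number best. The highest value was that of clinical 7 with healthy 7. Their mean was 0.025, against −0.004 for pairs of unlike number, which does not settle whether the numbers pair cows. With the number as a replicate block, limma called 0, 8 and 23 miRNAs in the 3 comparisons and no member, with miR-191 at 0.36, 0.47 and −0.11.

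Depth limits the rarer members: a count of 0 in a library of 1371 known reads still allows 0.219% of them.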
